A study of Danio rerio with 8 samples.

Results

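The DDX (DEAD-box) and DHX (DEAH-box) genes of the zebrafish were followed in RNA-seq libraries of sorted cells labelled scale melanocytes and melanoma. The 2 families were taken as every row of the deposited count table whose Ensembl identifier maps to a symbol that starts with ddx or dhx and a digit, apart from the genes left out in the methods. This gave 43 rows of 28272, 29 of them ddx and 14 dhx, and all 43 passed the filter on low counts. Symbols are written here in lower case. A set of 3 symbols falls on 2 identifiers each (ddx19a, ddx39a and dhx32), and these rows are told apart by their identifiers.

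RNA helicases of these families use ATP to pull apart short RNA duplexes, to strip proteins from RNA or to clamp onto it. The DEAD-box enzymes mostly separate short helices locally, while many DEAH-box enzymes move along a strand. Together they serve nearly every step of an RNA's life, from the folding of ribosomal RNA in the nucleolus and the remodelling of the spliceosome to export, translation and decay of messenger RNA, and most are expressed in all tissues.

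All 8 libraries came from adult fish of 1 strain, which carries human BRAF with the V600E change and EGFP, each under the promoter of mitfa, a gene of the pigment cell lineage, and the b4 allele at the alb locus. Unpigmented EGFP-positive cells were sorted, 4 libraries from cells labelled scale melanocytes and 4 from melanoma. The study compared gene expression between these cell types. Whether each library was made from its own fish is not stated. The p-values therefore weigh the group difference against the variation among these libraries, which may not be that among fish. Part of that variation may be technical.

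Libraries held 86888494 to 100270657 counts. The first group is called the scale libraries below, because its defining transcripts go against the label. Of 13 rows for melanocyte markers, 11 were higher in melanoma and 0 lower, and the list summed to 73.7 to 132 CPM (counts scaled to the size of the library, with TMM normalization) in scale libraries and 2130 to 12286 CPM in melanoma. The 11 rows for epidermal markers summed to 47378 to 100650 CPM in scale libraries and 28.4 to 172 CPM in melanoma. The only values of 0 were krt97 in melanoma replicate 2 and, among the melanocyte markers, mc1r in scale replicate 2. The melanocyte marker sox10 was at 0.461 to 1.24 CPM in scale libraries and 194 to 434 CPM in melanoma. Scale bone and fibroblast markers fell in 8 of 8 rows. They summed to 361 and 698 CPM in scale replicates 1 and 2 and 3825 and 7961 CPM in the 2 columns headed replicate 3. In melanoma they summed to 3.61 to 37.1 CPM. Stress markers summed to 109440 to 181555 CPM in scale libraries and 1591 to 5084 CPM in melanoma. The part of these differences in the results below was not tested. In such bulk samples, fewer cells of a type and less RNA per cell cannot be told apart. Scale replicate 2 and the second of the 2 columns headed replicate 3 had 22836 and 22537 genes with at least 10 counts, against 24832 to 26706 in the other 6 libraries.

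Helicase transcripts were mostly higher in melanoma. Of the 43 genes, 23 were called higher and 1 lower at an adjusted p under 0.05 (edgeR quasi-likelihood test), while 21.7% of all 26749 genes tested were called higher and 15.2% lower. The called rises ranged from ddx19a (ENSDARG00000005699) at 1.30 on the log2 scale to ddx28 at 4.01, and the 1 called fall was that of ddx5. By family, 18 of the 29 ddx genes (62.1%) and 5 of the 14 dhx genes (35.7%) were called higher, and the families were not tested against each other. The median log2 change of the 43 was 1.41, beside 0.049 for all genes tested. For 23 of the 43, every melanoma library lay above every scale library, beside 21.7% of all genes, and for 1 every melanoma library lay below, beside 15.2%. Of the 19 genes without a call, 13 had a positive and 6 a negative estimate. Without the 2 scale libraries with the fewest genes detected, 24 members were higher and 1 lower, beside 17.8% of all genes in each direction. Of the 23 called above, 21 were among those 24, and the 1 lower was ddx4.

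**Figure D1:**
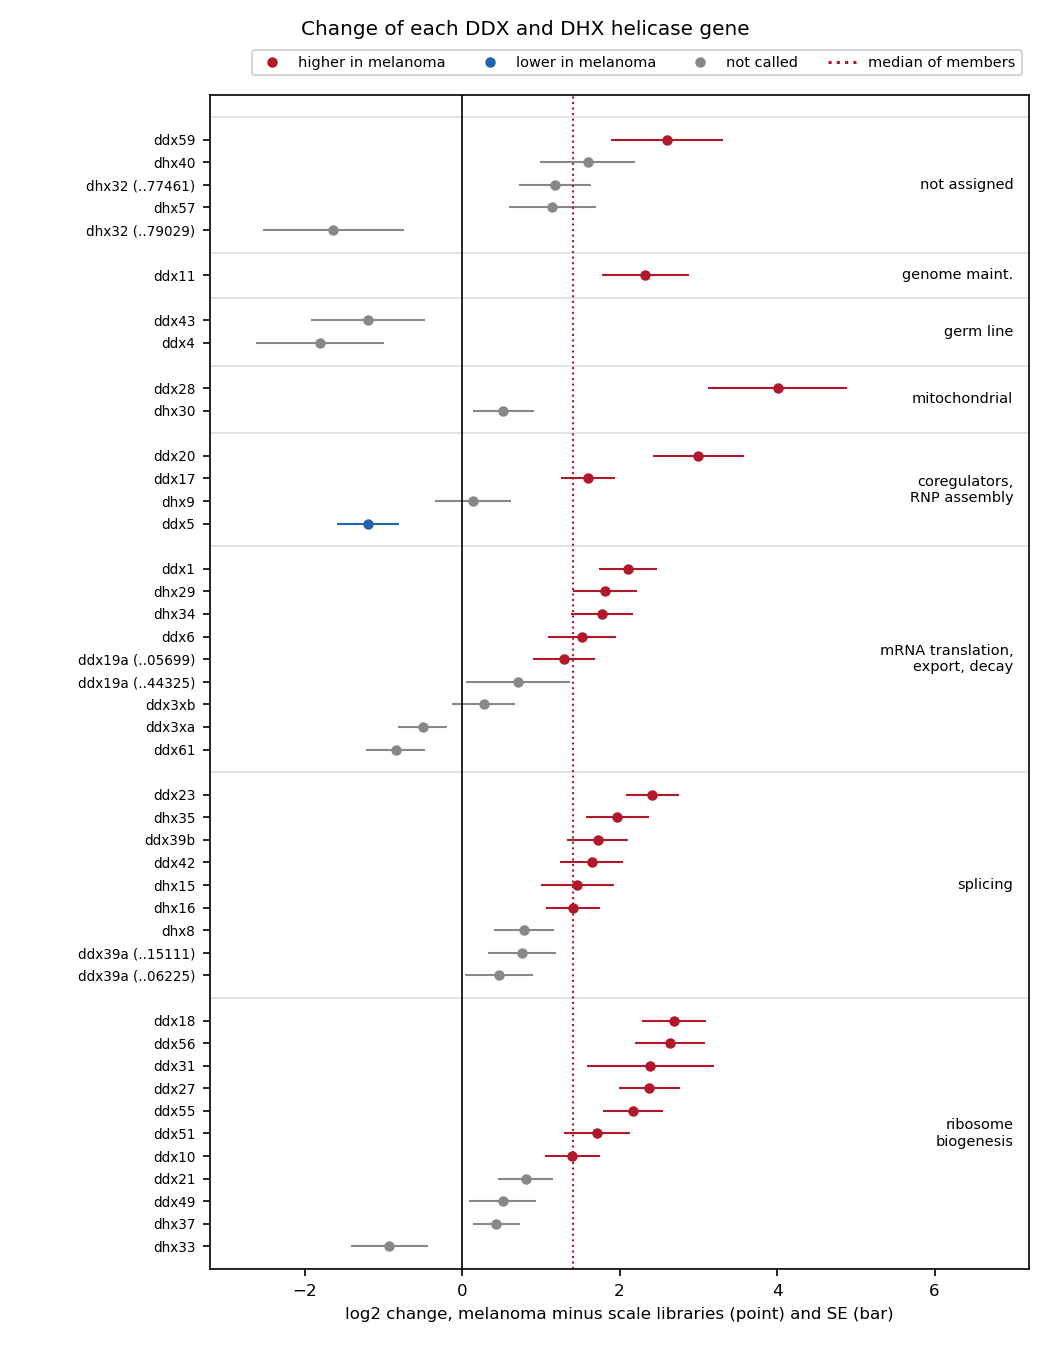
Log2 change of each of the 43 helicase genes, melanoma minus scale libraries (x axis), with points coloured by call and bars showing 1 SE, grouped by the role of the gene (y axis; duplicate symbols carry the last digits of their identifier). The dotted line is the median of the 43 genes, 1.41; 23 genes are called higher and only ddx5 is called lower.

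Ribosome biogenesis is the assembly of ribosomal subunits, mostly in the nucleolus. The list for it held 16 helicase symbols and gave 11 rows. Of these 11 genes 7 were called higher and 0 lower, beside 21.7% and 15.2% of all genes tested. The share called higher was 63.6%, beside 53.5% of the 43 genes. Their log2 changes had a median of 1.72. The gene ddx18 (ENSDARG00000030789), for a helicase of large-subunit assembly, was at 14.1, 15.98, 21.4 and 29.9 CPM in the scale libraries (replicates 1 and 2, then the first and second columns of replicate 3) and at 124, 75.6, 135 and 190.3 CPM in melanoma replicates 1 to 4. The lowest melanoma library was well above the highest scale library. The means were 20.3 ± 7.11 and 131 ± 47.1 CPM (SD, n = 4 each), a log2 change of 2.69 ± 0.41 (SE; adjusted p = 0.000422).

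Another gene for a nucleolar helicase of large-subunit assembly, ddx56 (ENSDARG00000020913), was at 12.7, 27.3, 17.3 and 25.0 CPM in scale libraries and 85.1, 227, 86.6 and 114 CPM in melanoma. Melanoma replicate 2 stood highest and the groups did not overlap. Its log2 change was 2.64 ± 0.44 (adjusted p = 0.000736). The gene ddx27 (ENSDARG00000091831), for a helicase of ribosomal RNA processing, rose by 2.38 ± 0.39 on the log2 scale (adjusted p = 0.000616), the means being 6.61 ± 0.972 and 34.4 ± 15.6 CPM, with its 4 scale libraries between 5.39 and 7.49 CPM. Melanoma replicate 2 was the highest again, at 57.3 CPM against 22.0 to 29.8 CPM in the other 3.

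The gene ddx31 (ENSDARG00000035507), for another nucleolar helicase, was at 4.81, 2.09, 3.76 and 0.105 CPM in scale libraries and 6.84, 25.3, 10.8 and 13.9 CPM in melanoma. The low scale value rests on 5 counts. Its log2 change of 2.39 ± 0.80 (adjusted p = 0.0342) missed the threshold on leaving out scale replicate 2 (adjusted p = 0.0760), scale replicate 3, first column (0.0576), melanoma replicate 2 (0.0916) or melanoma replicate 4 (0.0585), nor without the 2 scale libraries with the fewest genes detected (0.0511) or with upper quartile scaling (0.0787) and a filter of 5 CPM in 4 libraries (0.0958). Another 3 genes of this role rose by smaller amounts, ddx55 by 2.17, ddx51 by 1.72 and ddx10 by 1.40 on the log2 scale. The call of ddx10 was lost without those 2 scale libraries (adjusted p = 0.0540) and with the same filter (0.0798).

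The remaining 4 genes of ribosome biogenesis were not called. The gene ddx21 (ENSDARG00000063626), for a nucleolar helicase that also acts in transcription, was at 73.4, 139.9, 67.7 and 112 CPM in scale libraries and 141, 194, 170.1 and 182 CPM in melanoma. Every melanoma library lay above every scale library, the nearest pair by about 1 CPM. The log2 change was 0.81 ± 0.36 (adjusted p = 0.0946). Without the 2 scale libraries with the fewest genes detected, which were its 2 highest scale libraries in CPM, it was called at 1.25 (adjusted p = 0.0305). The TMM factors of these 2 were 0.467 and 0.538, against 0.863 and 0.874 in the other scale libraries. In the 4 scale libraries the gene had 5505, 6295, 5548 and 5348 counts. The change was 0.44 ± 0.30 for dhx37, whose product acts in small-subunit assembly, 0.52 ± 0.42 for ddx49 and -0.92 ± 0.49 for dhx33.

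**Figure D2:**
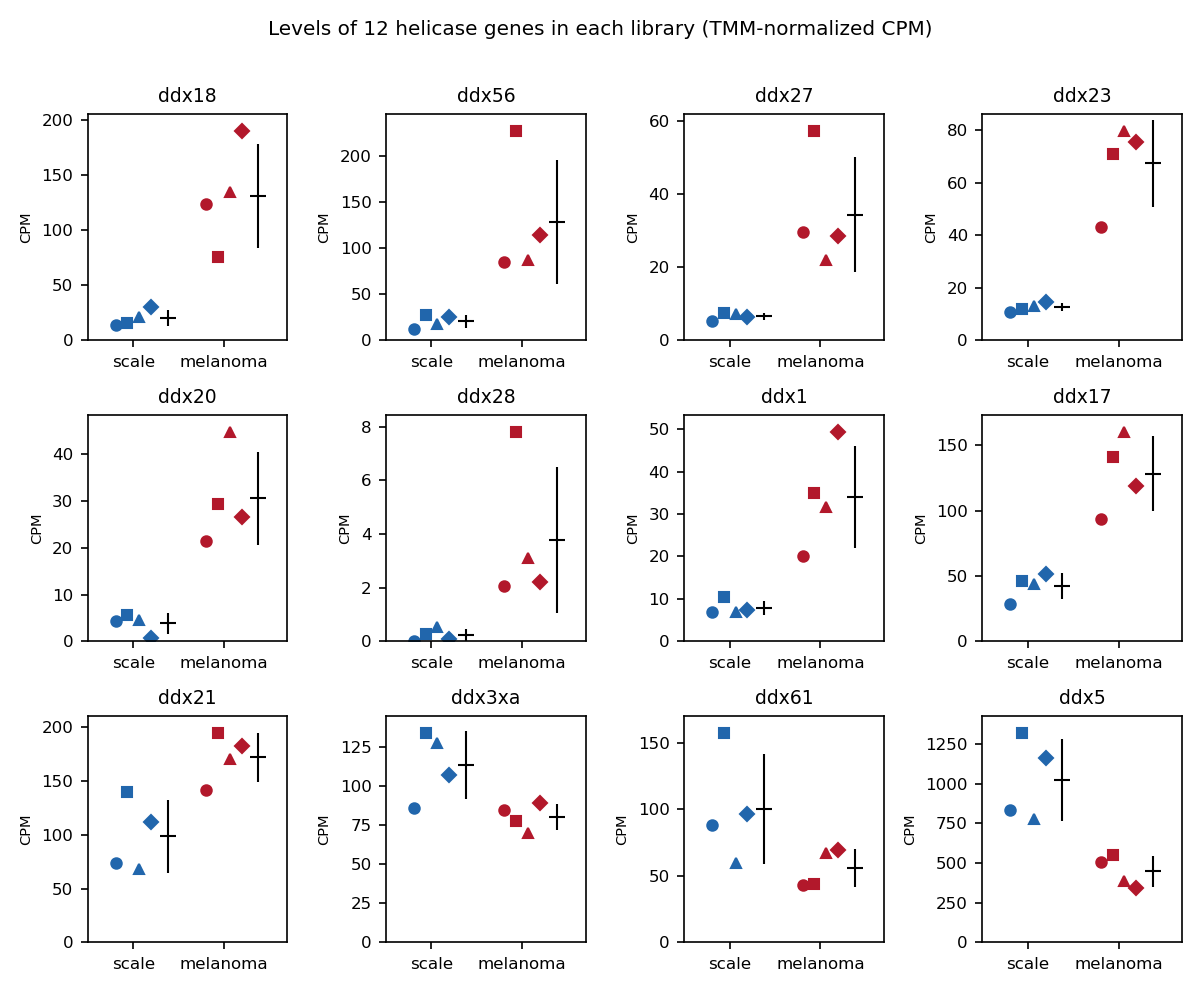
TMM-normalized CPM (y axes, each from 0) of 12 helicase genes in the 4 scale libraries (blue; circle, replicate 1; square, replicate 2; triangle and diamond, first and second columns of replicate 3) and the 4 melanoma libraries (red; circle, square, triangle and diamond, replicates 1 to 4), with the group mean and SD in black. The groups do not overlap for the first 8 genes, nor for ddx21, and ddx5 is the gene for which all melanoma libraries are lower, 344 to 549.7 CPM against 777 to 1319 CPM.

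For splicing, 12 helicase symbols were listed and 9 rows found. Among these genes, 6 of 9 were called higher and 0 lower, beside 21.7% and 15.2% of all genes tested. The share called higher was 66.7%, beside 53.5% of the 43 genes. The median change was 1.46 on the log2 scale. The clearest was ddx23 (ENSDARG00000021945), whose product is the counterpart of yeast Prp28, which admits the U4/U6.U5 particle to the 5′ splice site. It was at 10.9, 11.9, 13.1 and 14.7 CPM in scale libraries and 43.2, 71.1, 79.8 and 75.6 CPM in melanoma. Scale libraries were close together, and melanoma replicate 1 was the lowest of its group but still far above them. The log2 change was 2.41 ± 0.34 (adjusted p = 0.000253, the smallest of the 43 genes).

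The rise was 1.97 ± 0.40 for dhx35, found in human spliceosomes, 1.64 ± 0.40 for ddx42, and 1.41 ± 0.34 for dhx16, the counterpart of yeast Prp2, which readies the spliceosome for the first step. The gene dhx15 (ENSDARG00000015392), for the helicase that takes the spliceosome apart, was at 33.6, 88.9, 43.4 and 69.6 CPM in scale libraries and 68.5, 233, 210.4 and 138 CPM in melanoma. Melanoma replicate 1 lay below 2 scale libraries, so the groups overlapped. Its log2 change of 1.46 ± 0.46 passed (adjusted p = 0.0270). That call was lost without any 1 of the 4 scale libraries (adjusted p between 0.0503 and 0.146), without melanoma replicate 2 (0.0690) or 3 (0.0655), and with RLE (0.0672) or upper quartile scaling (0.0881). The gene dhx8, for the helicase that releases spliced RNA, was not called (0.79 ± 0.38, adjusted p = 0.123).

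The genes ddx39a and ddx39b encode closely related helicases that act in splicing and in loading export factors onto messenger RNA. The gene ddx39b (ENSDARG00000036069) was at 8.93, 11.6, 14.0 and 19.0 CPM in scale libraries and 34.0, 68.7, 42.8 and 31.4 CPM in melanoma. The groups did not overlap, and its rise was 1.72 ± 0.38 on the log2 scale (adjusted p = 0.00435). Neither ddx39a row was called. One of them, ENSDARG00000006225, was at 84.0, 194, 76.5 and 186 CPM in scale libraries and 132, 141, 282 and 192 CPM in melanoma. Its 2 high scale libraries were those with the fewest genes detected, and they lay above melanoma replicates 1 and 2. The change was 0.47 ± 0.43 (adjusted p = 0.419). The other, ENSDARG00000015111, changed by 0.76 ± 0.43 (adjusted p = 0.184), and by 1.47 without those 2 scale libraries (adjusted p = 0.0317).

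For helicases of translation, export and decay of messenger RNA, 11 symbols were listed and 9 rows found. Here 5 of 9 genes were called higher and 0 lower, beside 21.7% and 15.2% of all genes tested. The share called higher was 55.6%, beside 53.5% of the 43 genes. The gene ddx1 (ENSDARG00000032117), for a helicase of the tRNA ligase complex, was at 6.92, 10.4, 6.91 and 7.32 CPM in scale libraries and 20.01, 35.0, 31.6 and 49.3 CPM in melanoma. The lowest melanoma value was above the highest scale value. The log2 change was 2.11 ± 0.37 (adjusted p = 0.00102). The gene dhx29, for a helicase that helps the small ribosomal subunit scan structured leaders, rose by 1.81, and dhx34, for a helicase of nonsense-mediated decay, by 1.78 on the log2 scale.

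The gene ddx6 (ENSDARG00000061338), for a helicase that promotes decapping and translational repression, was at 9.61 to 21.4 CPM in scale libraries and 28.7 to 84.1 CPM in melanoma. Its log2 change was 1.52 ± 0.43 (adjusted p = 0.0160), a call lost without scale replicate 1 (0.101), scale replicate 2 (0.0762) or scale replicate 3, first column (0.0846), and with upper quartile scaling (0.0590). The gene ddx61 (ENSDARG00000018425), listed with it here, had an estimate of the opposite sign. It was at 88.0, 157, 59.5 and 96.2 CPM in scale libraries and 43.2, 43.5, 67.4 and 69.3 CPM in melanoma. Its change was -0.84 ± 0.38 on the log2 scale (adjusted p = 0.1001). The groups overlapped, since the lowest scale library lay below 2 of the melanoma libraries. It was called lower with upper quartile scaling (adjusted p = 0.0168) and without the first column of scale replicate 3 (0.0398). With the filter of 5 CPM in 4 libraries it was also called lower, and its sign turned with total counts (0.42).

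The genes ddx3xa and ddx3xb are the zebrafish counterparts of human DDX3X, which helps ribosomes start on structured messages. For ddx3xa (ENSDARG00000020573) the scale libraries were at 85.9, 134, 127 and 107 CPM and the melanoma libraries at 84.7, 77.8, 70.05 and 89.0 CPM. For ddx3xb (ENSDARG00000005774) they were at 32.5, 77.9, 22.8 and 62.9 CPM and at 52.9, 67.6, 61.2 and 55.3 CPM. Neither was called (adjusted p = 0.230 and 0.619). Without the 2 scale libraries with the fewest genes detected ddx3xb was just called higher (1.07 against 0.27 as reported, adjusted p = 0.049998). With upper quartile scaling (-0.93, adjusted p = 0.0331) and with the 5 CPM filter (-1.09, 0.00768) ddx3xa was called lower. In CPM the melanoma libraries were close together for both genes, and ddx3xb spread widely among scale libraries. Its counts in the scale libraries were 2439, 3506, 1866 and 2999. Of the rows for ddx19a, whose product releases messenger RNA at the nuclear pore, ENSDARG00000005699 was at 9.84, 23.6, 19.0 and 19.8 CPM in scale libraries and 29.7, 32.0, 66.5 and 49.5 CPM in melanoma. The groups did not overlap, and it rose by 1.30 ± 0.39 on the log2 scale (adjusted p = 0.0224). That call was lost without any 1 scale library (adjusted p between 0.0545 and 0.120), without melanoma replicate 3 (0.0719) or 4 (0.0538) and with RLE (0.0559) or upper quartile scaling (0.0912). The row ENSDARG00000044325 was near 1 CPM in both groups and did not pass (adjusted p = 0.415).

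The coregulator genes moved apart. The gene ddx5 (ENSDARG00000038068) encodes a DEAD-box protein that acts with transcription factors, in splicing and in microRNA processing. It was at 837, 1319, 777 and 1159.7 CPM in scale libraries and 509, 549.7, 386 and 344 CPM in melanoma. All 4 melanoma libraries lay below all 4 scale libraries. Its log2 change was -1.19 ± 0.39 (adjusted p = 0.0326). The call was lost without scale replicate 2 (adjusted p = 0.0811), the second column of scale replicate 3 (0.0778), melanoma replicate 3 (0.0921) or melanoma replicate 4 (0.105), and without the 2 scale libraries with the fewest genes detected (-0.87, 0.122). With total counts alone the change was 0.037.

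Its close relative ddx17 (ENSDARG00000010873) rose where ddx5 fell. The scale libraries were at 28.5, 46.3, 43.5 and 51.3 CPM and the melanoma libraries at 93.4, 141, 160.2 and 119 CPM. The groups were well apart, and the log2 change was 1.598 ± 0.34 (adjusted p = 0.00346). The gene ddx20 (ENSDARG00000061204), for the Gemin3 subunit of the SMN complex, which assembles spliceosomal small RNPs, was at 4.43, 5.56, 4.64 and 0.629 CPM in scale libraries and 21.4, 29.4, 44.7 and 26.7 CPM in melanoma. The groups were well apart, and the log2 change was 3.001 ± 0.58 (adjusted p = 0.00185). The second column of scale replicate 3 was low, with 30 counts, and without it the change was 2.55. The gene dhx9, for a helicase of transcription and RNA processing, was at 4.05 ± 2.12 and 4.45 ± 1.46 CPM (adjusted p = 0.846), and its sign turned in several of the alternatives.

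The division of the reads among the 43 genes differed between the groups, a ratio within each library that does not depend on library scaling. These are shares of reads, not levels per length. The share of ddx5 in the helicase reads was 53.2%, 50.7%, 50.8% and 52.6% in scale libraries and 26.8%, 20.8%, 15.6% and 14.6% in melanoma. The scale libraries were within a few percentage points of each other, and every melanoma library was far below them. Shares must add up, so the other roles were compared over the helicase reads without those of ddx5. Ribosome biogenesis genes held 22.6% ± 1.78 of those reads in scale libraries and 31.5% ± 4.25 in melanoma, with no overlap. Genes of translation, export and decay held 32.96% ± 1.65 and 18.5% ± 1.09, also with no overlap. Splicing genes held 32.9% ± 4.98 and 34.7% ± 5.11, and their groups overlapped. Of all counts of a library, the 43 genes together took 0.119% to 0.136% in scale libraries and 0.317% to 0.372% in melanoma. The TMM factors of the libraries were 0.467 to 0.874 in the scale group and 1.37 to 1.67 in melanoma. After TMM scaling the 43 genes summed to 1977 ± 518 and 2342 ± 318 CPM, and the groups overlapped (1530 to 2600 and 1901 to 2644 CPM). Without ddx5 the sums were 954 ± 261 and 1895 ± 337 CPM, with no overlap (735 to 1281 and 1392 to 2094 CPM). The division was looked at after the values were seen, and no test was made of it.

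**Figure D3:**
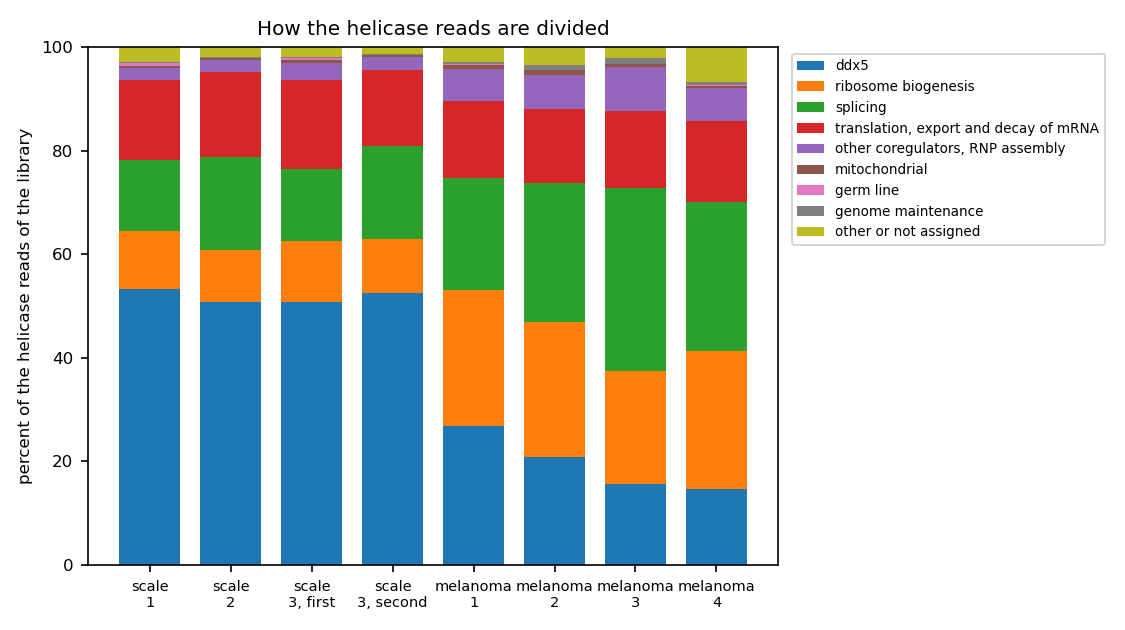
Percent of each library's helicase reads (y axis) held by ddx5 and by the other genes of each role, for the 4 scale and 4 melanoma libraries (x axis). The share of ddx5 is 50.7% to 53.2% in scale libraries and 14.6% to 26.8% in melanoma.

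Mitochondrial helicases, which serve the organelle's own ribosomes and RNA, were the genes ddx28 and dhx30. The gene ddx28 (ENSDARG00000060411), for a helicase of mitochondrial ribosome assembly, had the largest change of the 43 genes. It was at 0.0267, 0.267, 0.549 and 0.0839 CPM in scale libraries, which are 2, 12, 45 and 4 counts, and at 2.05, 7.80, 3.11 and 2.20 CPM in melanoma, from 318 counts upwards. It was scarce in every scale library. The log2 change was 4.01 ± 0.88 (adjusted p = 0.00402), 3.39 without melanoma replicate 2 and 4.76 without the first column of scale replicate 3. The gene dhx30 (ENSDARG00000077839), whose product binds mitochondrial transcripts, was at 6.65, 9.98, 6.02 and 10.02 CPM in scale libraries and 15.7, 15.1, 8.68 and 7.51 CPM in melanoma. The groups overlapped, and it was not called (0.52 ± 0.39, adjusted p = 0.306).

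The gene ddx11 (ENSDARG00000011072) encodes a DNA helicase that helps to join sister chromatids during replication. It was at 3.48, 6.56, 3.87 and 1.68 CPM in scale libraries and 6.59, 26.4, 30.8 and 14.5 CPM in melanoma. Melanoma replicate 1 stood at the level of the highest scale library and the other 3 above it. The log2 change was 2.33 ± 0.55 (adjusted p = 0.00613) and the call was kept in all 21 alternatives. Of these, total counts and the 2-fold minimum could hardly have removed it.

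Germ line helicases were low in both groups. The germ cell gene ddx4 (ENSDARG00000014373), known as vasa, was at 3.21, 0.556, 3.14 and 0.440 CPM in scale libraries and 0.813, 0.173, 0.813 and 0.304 CPM in melanoma. The 2 lower scale libraries were those with the fewest genes detected. It did not pass (log2 change -1.81 ± 0.81, adjusted p = 0.102), but was called lower without them (-2.63, adjusted p = 0.0189), without the second column of replicate 3 only (-2.18, 0.0434) and by DESeq2 (0.0326). The gene ddx43 (ENSDARG00000022614), whose human counterpart is a cancer/testis antigen, was at 4.60, 1.53, 2.73 and 1.45 CPM in scale libraries and 0.446, 0.591, 0.492 and 2.98 CPM in melanoma. One melanoma library, replicate 4, stood above the other 3 and above 3 of the scale libraries. The gene did not pass (-1.20 ± 0.73, adjusted p = 0.217), and without melanoma replicate 4 it was called lower (-2.33, adjusted p = 0.0221).

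A group of 5 genes was not assigned to a role, and 1 was called, as higher. That is 20%, beside 21.7% of all genes tested. The gene ddx59 (ENSDARG00000022177), linked in humans to oral-facial-digital syndrome, was at 0.133, 1.22, 0.610 and 0.755 CPM in scale libraries and 4.31, 1.18, 4.73 and 6.23 CPM in melanoma. Melanoma replicate 2 lay among the scale libraries. The log2 change was 2.60 ± 0.72 (adjusted p = 0.0137), lost without the first column of scale replicate 3 (0.0575), and 3.41 without the 2 scale libraries with the fewest genes detected. Of the dhx32 rows, ENSDARG00000077461 was at 38.3, 39.7, 21.9 and 28.8 CPM in scale libraries and 43.9, 80.3, 31.3 and 136 CPM in melanoma. It spread over 4-fold in melanoma and missed the threshold (1.18 ± 0.46, adjusted p = 0.0639), passing without melanoma replicate 1 (0.0393) or 3 (0.0293). The other row, ENSDARG00000079029, was at 1.64 ± 1.06 and 0.525 ± 0.433 CPM (adjusted p = 0.170). For dhx40 every melanoma library, from 4.66 CPM, lay above every scale library, up to 3.65 CPM, and the adjusted p was 0.0559. It was called with total counts, RLE scaling (0.0464), DESeq2 (0.0180) and limma-voom (0.0292), and without scale replicate 1 (0.0378). The adjusted p of dhx57 was 0.123.

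Related genes of a pair were compared by the ratio of their counts within each library, tested by an exact two-sided permutation test over 4 against 4 libraries, which cannot go below p = 0.0286, with adjustment over 6 pairs. The log2 ratio of ddx3xa to ddx3xb was 1.40, 0.78, 2.48 and 0.77 in scale libraries and 0.68, 0.20, 0.20 and 0.69 in melanoma. Every melanoma library lay below every scale library, a difference of -0.92 in the mean (exact p = 0.0286, adjusted p = 0.171). The ratio of ddx39a (ENSDARG00000006225) to ddx39b was lower in melanoma by 1.18 in the mean, from 3.26 ± 0.66 to 2.08 ± 0.78 (SD, n = 4; exact p = 0.0857, adjusted p = 0.171). That of ENSDARG00000015111 to ddx39b went from 2.04 ± 0.80 to 1.18 ± 0.62 (exact p = 0.171, adjusted p = 0.257). The 2 ddx39a rows differed in their change by -0.31 (exact p = 0.286, adjusted p = 0.343). The dhx32 rows had the largest mean difference, 3.11, with ratios between 3.36 and 5.998 in scale libraries and between 4.91 and 11.14 in melanoma (exact p = 0.0857, adjusted p = 0.171). The highest of these rests on 4 counts of the scarcer gene. The ddx19a rows differed by 0.28 (exact p = 0.771, adjusted p = 0.771). No pair passed after adjustment, and with 6 pairs a single pair at the smallest possible p could not have passed. A difference between related genes is therefore undetermined at this number of libraries. Similar copies may also exchange reads.

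**Figure D4:**
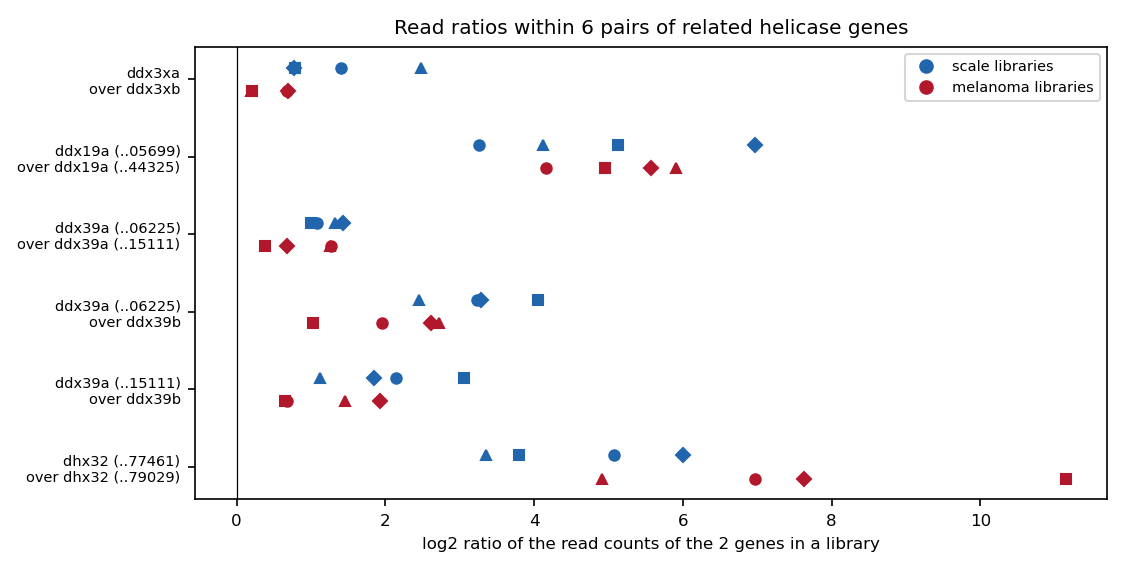
Log2 ratio of the read counts of 2 related helicase genes in each library (x axis), for 6 pairs (y axis; duplicate symbols carry the last digits of their identifier), with scale libraries in blue and melanoma libraries in red and symbols by replicate as in the plot of levels. The groups are apart only for ddx3xa over ddx3xb.

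Among melanoma libraries, replicate 1 most often had the lowest value, for 24 of the 43 genes, against 9, 4 and 6 for replicates 2, 3 and 4. Among scale libraries, replicate 2 most often had the highest value, for 24 of the 43 genes. The others were highest for 8 (replicate 1), 4 and 7 genes (first and second columns of replicate 3). These counts were not made over all genes. They rank TMM-normalized CPM, and scale replicate 2 had the lowest TMM factor of the 8 libraries, 0.467. Of all its counts, the 43 genes took 0.121%. That share was 0.136% in scale replicate 1 and 0.134% and 0.119% in the first and second columns of replicate 3. Several marker lists stood apart in melanoma replicate 1. The 6 rows for markers of dividing cells summed lowest there, to 61.4 CPM, against 402, 743 and 507 CPM in the other melanoma libraries and 40.5 to 91.6 CPM in scale libraries. All 6 rows were called higher in melanoma, beside 21.7% of all genes tested, with a median log2 change of 3.74. For 4 of them every melanoma library lay above every scale library, beside 21.7% of all genes. The row for pcna was at 26.96 CPM in melanoma replicate 1 and 26.9 to 68.7 CPM in scale libraries. The melanocyte marker list also summed lowest in this library, at 2130 CPM against 5538 to 12286 CPM in the other 3. Most of its rows were lowest there. Among those that were not, dct was at 215 CPM there and 110 CPM in replicate 2. The row for kit was at 87.9 CPM there and 64.6 to 90.6 CPM in the other 3. Its 3 rows for macrophages, neutrophils and blood summed to 249 CPM, against 38.5 to 82.9 CPM in the other melanoma libraries and 36.3 to 84.4 CPM in scale libraries, and 0 of the 3 were called between the groups. Stress markers also summed highest there, at 5084 CPM against 1591 to 2427 CPM. The rows for hsp70.1, hsp70l, atf3 and dnajb1b were highest there. Those for junb and egr1 were at 896 and 184 CPM there and higher in replicate 2, at 947 and 639 CPM. The part of these markers in the helicase values was not tested. In melanoma replicate 1, 28 of the 43 helicase genes lay above every scale library, beside 34.6% of all genes tested, and in replicates 2, 3 and 4 the number was 29, 32 and 29, beside 36.9%, 35.8% and 36.2%. Without melanoma replicate 1, 24 genes were called higher and 1 lower, beside 21.4% and 14.6% of all genes, and all 23 were among the 24.

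Directions depended on scaling for the genes near or below no change. The median change of all genes on the log2 scale was 0.049 with TMM, -0.064 with RLE, -0.39 with upper quartile scaling and 1.17 with total counts. Rescaling moves all genes nearly alike, so the gap between the helicase median and that of all genes, 1.36 as reported, hardly depends on it. That gap was 0.83 with a filter of 5 CPM in 4 libraries and 1.16 to 1.54 on leaving out 1 library. With these scalings 23, 22, 19 and 34 of the 43 genes were called higher and 1, 1, 3 and 0 lower, while 21.7%, 18.9%, 15.1% and 40.6% of all genes were called higher and 15.2%, 16.7%, 21.2% and 6.65% lower. With upper quartile scaling the genes called lower were ddx5, ddx61 and ddx3xa. DESeq2 called 24 of the 43 higher and 2 lower, ddx5 and ddx4, beside 21.6% and 21% of all genes. Of the 35 genes that passed the 5 CPM filter, 15 were higher and 3 lower, beside 26.9% of all genes in each direction. The calls lost there were those of ddx6, ddx10, ddx19a (ENSDARG00000005699), ddx31, dhx15 and dhx16, while ddx28 and ddx59 were not tested. Of the 23 risen genes, 16 kept their call in every alternative that could be run on them, namely ddx1, ddx11, ddx17, ddx18, ddx20, ddx23, ddx27, ddx28, ddx39b, ddx42, ddx51, ddx55, ddx56, dhx29, dhx34 and dhx35. Some alternatives could hardly remove a rise. All 23 already met the 2-fold minimum, and total counts moved the changes upwards, with all 23 kept. The share of all called genes that kept their call was not computed.

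**Figure D5:**
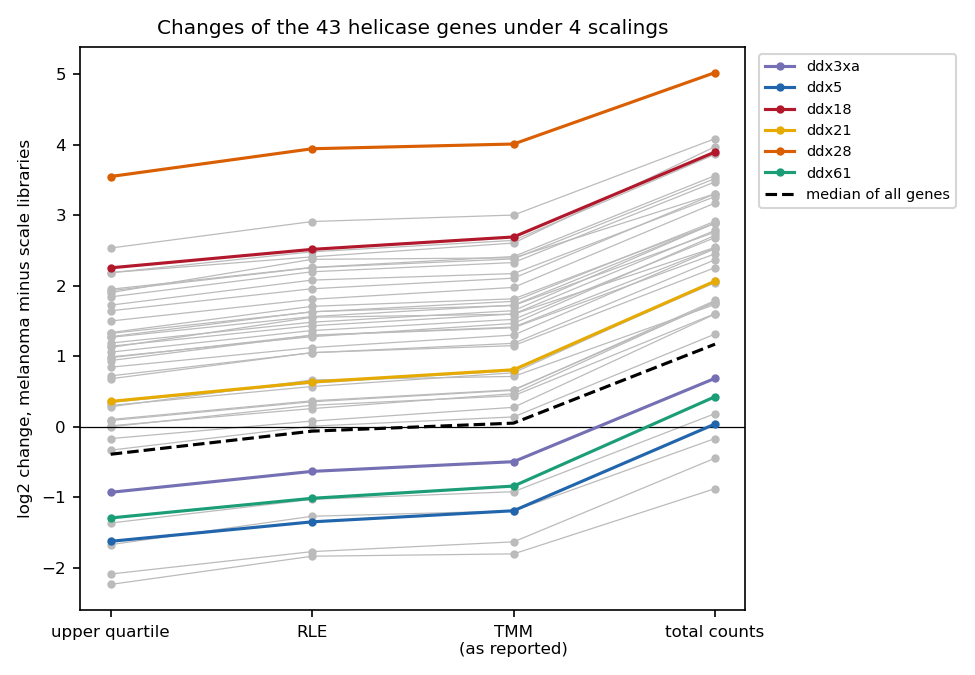
Log2 change of the 43 helicase genes, melanoma minus scale libraries (y axis), under 4 ways of scaling the libraries (x axis), with 1 line per gene, 6 genes coloured, and the median of all genes tested as a dashed line. All lines move with the scaling, ddx5 from below 0 to 0.037 under total counts, while ddx18 and ddx28 stay above the median of all genes throughout.

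Genes of other helicases and of helicase partners gave shares called higher, 52.9% and 52.8%, similar to the 53.5% of the 43 genes. No test was made between the lists. Of 17 measured genes for RNA helicases outside the DDX and DHX symbols, 9 were higher and 2 lower. Of all genes tested, 21.7% were higher and 15.2% lower. The median change of the 17 was 1.29 on the log2 scale. The gene mov10b.1, for a relative of the antiviral and RNA-silencing helicase MOV10, went from 5.80 ± 2.59 to 184.9 ± 78.9 CPM, a rise of 4.99 ± 0.50 on the log2 scale (adjusted p = 3.77e-05). The gene snrnp200, for the helicase that unwinds U4 from U6, rose by 1.54, and mtrex, for the exosome's nuclear helicase, by 1.96. The translation initiation helicases eIF4A, founders of the DEAD-box family, gave 3 rows, of which 1 was called lower and 0 higher. The gene eif4a1b went from 593 ± 302 to 208 ± 76.0 CPM (log2 change -1.51 ± 0.50, adjusted p = 0.0319), a call lost without melanoma replicate 1 (0.0631) and without the 2 scale libraries with the fewest genes detected (-0.75, 0.235), and its change was -0.21 with total counts. The gene eif4a1a did not pass (-1.14 ± 0.43, adjusted p = 0.0573), nor did eif4a2, with a positive estimate (0.92 ± 0.41, adjusted p = 0.0978). The other called fall was that of ascc3 (-1.68, lost with total counts at adjusted p = 0.495), for a helicase of DNA repair and ribosome quality control. Of fits leaving out 1 library, only that without melanoma replicate 1 was looked at for single genes of this list. The number called lower, 2 as reported, fell to 1 on dropping any 1 melanoma library. It also fell to 1 on dropping scale replicate 2 or the later replicate 3 column. In each case at least 1 of these 2 calls was lost. It was 2 on dropping scale replicate 1 and 3 on dropping the earlier replicate 3 column.

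Of 36 measured rows for cofactors of these helicases, 19 were higher and 1 lower, beside 21.7% and 15.2% of all genes tested. Their median change was 1.17 on the log2 scale. Partners of ddx20 in the SMN complex included gemin4, which rose by 3.64 ± 0.51 (0.628 ± 0.301 against 7.86 ± 2.23 CPM, adjusted p = 0.000253), while gemin2 (adjusted p = 0.258) and smn1 (0.128) did not pass. Without the 2 scale libraries with the fewest genes detected smn1 was called higher (1.71, adjusted p = 0.0200). The G-patch gene tfip11, for the activator of the dhx15 product, rose by 1.94, and gpkow, for a partner of the dhx16 product, by 1.67. Also listed were gpatch11, which rose by 2.50, and gpatch1, by 1.48, a call lost with upper quartile scaling (adjusted p = 0.0716). Not called were pinx1 (0.80, adjusted p = 0.133), gpatch4 (1.23, 0.0694) and gpatch8 (0.74, 0.122). Of the listed decapping and repression partners of the ddx6 product, patl1 rose by 1.64, edc3 by 1.53 and eif4enif1 by 1.85, while lsm14b changed by -2.66. The call of edc3 was lost with upper quartile scaling (adjusted p = 0.0514) and without the 2 scale libraries with the fewest genes detected (0.0584), and that of lsm14b with total counts (0.0676). Not called were cnot1 (0.52, adjusted p = 0.228), lsm14aa (-0.43, 0.378) and patl2 (-1.60, 0.265). The nuclear pore gene nup214, for a partner of the ddx19 product, rose by 1.16, a call lost with RLE (adjusted p = 0.0738) and upper quartile scaling (0.111). The other partner, gle1, did not pass (0.86 ± 0.38, adjusted p = 0.0960). Among members of the complex that works with ddx39b in export, thoc1 rose by 2.26 and thoc2 by 1.18. The call of thoc2 was lost with RLE (adjusted p = 0.0791) and upper quartile scaling (0.133) and without those 2 scale libraries (0.0786). Single cofactors were looked at only under the other scalings, without melanoma replicate 1 and without those 2 scale libraries. On leaving out 1 library, 12 to 19 cofactors were called higher, so some calls were lost there that are not named. The export adaptor alyref did not pass (-1.17 ± 0.46, adjusted p = 0.0630), but was called lower with upper quartile scaling (0.0189).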

How the data were processed

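Whole-number gene counts were deposited by the authors for 8 libraries. In a second deposited table, of normalized signal, each library's counts were divided by a constant size factor. According to the submitters' processing notes, STAR 2.3, HTSeq, DESeq2 and the build Zv9 were used. Not given in the sources used here are their roles, the strand setting and the handling of multi-mapping reads. Per the labels' protocols, Trizol was used for RNA and an Illumina TruSeq kit for the libraries. Columns were matched by name. The headers of the last 2 scale columns both name replicate 3, and they are distinguished by their order. Every column was used, and no 2 libraries of a group agreed within counting noise (smallest chi-square per degree of freedom 127).

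Symbols came from a table that matched 19599 of 28272 identifiers. One row of these families, and an allele that all samples carry, are not reported here. Genes kept by filterByExpr were tested with edgeR 4.0.16 under R 4.3.3 (quasi-likelihood test on TMM-scaled libraries, no covariate), followed by Benjamini-Hochberg adjustment over 26749 genes and a threshold of 0.05. CPM are TMM-normalized. The approximate SE was obtained as the absolute log2 change over the root of F. Depths of 86888494 to 100270657 counts leave little counting error above 1 CPM, as far as depth alone decides. How many distinct molecules each library held was not assessed. Pair ratios used a prior count of 0.5. The code was tested on simulated counts.

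The members and lists were chosen with earlier results of these data known. Of the symbols listed for other helicases 17 of 24 were matched to a row, and of those for cofactors 34 of 46. Given in full were up to 8 rises and 8 falls, those of greatest log2 change among called members with a mean of at least 1 CPM, the member with the smallest p and with the highest level in each role, and all members of a pair; other members and list genes were named after their values were seen. Alternatives were RLE and upper quartile scaling, total counts, DESeq2 1.42.0, limma-voom (limma 3.58.1), no filter, 5 CPM in 4 libraries, a threshold of 0.01, a 2-fold minimum, a replicate block, and leaving out each library or the 2 with the fewest genes. The authors' size factors were added after seeing the data. Python 3.11.15, pandas 2.3.3 and matplotlib 3.10.9 were used for tables and figures.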

Additional observations from a re-analysis of the deposited data

Results flagged for a closer look

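A total of 3 values stood far from the other 3 libraries of their group by Dixon's criterion for 4 samples. Chance alone marks about 1 in 20 groups, and 48 groups were examined. The gene ddx1 was at 10.4 CPM in scale replicate 2, with the next scale library at 7.32 CPM. The gene ddx43 was at 2.98 CPM in melanoma replicate 4, with the next melanoma library at 0.591 CPM. The row ENSDARG00000044325 of ddx19a was at 1.65 CPM in melanoma replicate 1, with the next at 1.11 CPM.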

How the results depend on the processing

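Of 895 values of single members under alternatives, 796 kept direction and call, 51 lost the call, 30 gained it and 18 turned sign. The cause was not tested unless named. The count of members higher was 23, and between 18 and 24 on leaving out 1 library, where 14.6% to 21.4% of all genes were higher. It was 15 with the filter of 5 CPM in 4 libraries, which 8 members did not pass. The count lower was 1. It was 3 with upper quartile scaling and with that filter, 2 with DESeq2, 0 with total counts, with the stricter threshold and with the replicate block that takes the first column of replicate 3 as number 3, and 0 to 2 on leaving out 1 library. Other helicases lower numbered 2, and 0 with total counts, 1 at the stricter threshold and without the 2 libraries with the fewest genes detected, and 1 to 3 on leaving out 1 library. Cofactors higher numbered 19, and 11 with upper quartile scaling or the 5 CPM filter, 32 with total counts, 12 at the stricter threshold and 12 to 19 on leaving out 1 library. Cofactors lower numbered 1, and 2 with upper quartile scaling, DESeq2 or the 5 CPM filter, 0 with total counts, and 1 to 2 on leaving out 1 library. The shares of all genes moved too. As reported 21.7% were higher and 15.2% lower, with upper quartile scaling 15.1% and 21.2%, and with total counts 40.6% and 6.65%. With DESeq2 they were 21.6% and 21%, and with the 5 CPM filter 26.9% each. Without the 2 libraries with the fewest genes they were 17.8% each. On leaving out 1 library 11.7% to 16.9% were lower.

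Signs turned with total counts for ddx3xa (0.69), ddx5 (0.037), ddx61 (0.42) and dhx33 (0.18), and with upper quartile scaling for ddx3xb (-0.17), dhx9 (-0.33) and dhx37 (-0.0013). With the 5 CPM filter they turned for ddx3xb (-0.29), ddx39a ENSDARG00000006225 (-0.12), ddx49 (-0.052), dhx30 (-0.039) and dhx37 (-0.16). On leaving out 1 library, ddx3xb ranged from -0.17 to 0.39 (-0.094 without scale replicate 1) and dhx9 from -0.22 to 0.41 (-0.028 without scale replicate 1, -0.12 without the first column of replicate 3, -0.024 without melanoma replicate 3). The difference between the ddx19a rows ranged from -0.26 to 0.99, being 0.61 without melanoma replicate 1.

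Replicate numbers gave no clear sign of pairing. Deviations of same-numbered libraries correlated at -0.0186 for number 1 and 0.107 for number 2. By the column taken, they correlated at 0.172 or -0.152 for number 3 and at -0.0325 or 0.0645 for number 4. Not every library correlated best with its own number. These values cannot show whether samples shared a fish or a batch. With the replicate block, 22 members were called higher with the first column of replicate 3 taken as number 3 and 21 with the second, beside 18.9% and 18.2% of all genes. In the first of these fits ddx5 (adjusted p = 0.0617) and ddx31 (0.0570) were not called, and in the second ddx31 (0.0513) and ddx59 (0.0509). Depth alone limits mainly the scarcest genes, such as ddx28 and ddx31 in scale libraries. Loss of molecules before sequencing was not assessed.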
